A study of Mus musculus with 8 samples.

Results

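Immunoglobulin chain transcripts were examined in the lungs of 4 wild-type and 4 Scgb3a2-transgenic mice. Members were the probes whose symbol in the annotated matrix began with Igh, Igk or Igl or was Igj, with Ighmbp2 and Iglon5, which are not antibody chains, left out. The rule found 15 probes of 9 genes among 41174 probes, and 20920 gene symbols are named in the matrix. There were 4 heavy chain probes (Ighm, Ighv14-2 and a pair of Igh-VJ558), 3 kappa light chain probes (Igkv1-117, Igkv6-14 and Igkv9-120), 4 lambda light chain probes (all Iglv1), 2 probes of the surrogate light chain gene Igll1 and 2 of the J chain gene Igj. Of the 15 probes, 13 passed the filter on low signal and were tested, while Igkv9-120 and 1 Igll1 probe did not. Each lung was labeled with Cy5 and hybridized beside a common pool in Cy3, so each value below is the log2 ratio of 1 lung to that pool, and 1 unit is a 2-fold difference. The mice were untreated C57BL/6 males, 8 to 10 weeks old by the sample labels and about 8 weeks by the study's methods. The transgenic mice carried the mouse Scgb3a2 coding sequence behind the human SP-C promoter, which drives expression in alveolar type II cells, and they descend from 1 founder, so line and transgene cannot be told apart. Whole lung was used, in which fewer cells of a type and less RNA per cell cannot be told apart.

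An antibody is built from paired heavy and light chains, each with a variable region assembled from gene segments in a B cell and a constant region, that of the heavy chain setting the antibody's class. Naive B cells carry IgM made with a mu heavy chain and a kappa or lambda light chain. Plasma cells secrete large amounts of antibody, in many cases after switching to other heavy chain classes such as IgG or IgA. The J chain links IgM and IgA into polymers and is made mainly by antibody-secreting cells, and Igll1 is part of the surrogate light chain of B cell precursors in bone marrow. The healthy mouse lung holds mostly circulating and marginated B cells, with few plasma cells and little organized lymphoid tissue.

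In RefSeq's GRCm38.p6 annotation 8 of the 9 genes were matched, and Igh-VJ558, the name of a heavy chain variable gene family, was not. The heavy chain genes lie on chromosome 12, the kappa genes on chromosome 6, Iglv1 and Igll1 on chromosome 16, and Igj, now named Jchain, on chromosome 5. The annotation lists 183 heavy, 162 kappa and 3 lambda variable segments, so the members cover few of the segments. Promoters were given for Igj and Igll1, which lay at opposite ends of the spread among lungs reported below and are shown for that contrast. Each runs from 250 bases before to 50 bases after the annotated start, on the minus strand, and capitals mark the E-box letters CAGGTG on either strand, a site bound by E proteins of B cells among other factors.
Igj promoter, chr5:88527848-88528147: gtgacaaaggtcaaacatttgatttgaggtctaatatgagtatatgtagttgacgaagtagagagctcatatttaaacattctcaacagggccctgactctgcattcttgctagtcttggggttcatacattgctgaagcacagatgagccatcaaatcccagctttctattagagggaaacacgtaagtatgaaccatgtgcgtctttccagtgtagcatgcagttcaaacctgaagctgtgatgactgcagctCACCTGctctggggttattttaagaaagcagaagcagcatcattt
Igll1 promoter, chr16:16863936-16864235: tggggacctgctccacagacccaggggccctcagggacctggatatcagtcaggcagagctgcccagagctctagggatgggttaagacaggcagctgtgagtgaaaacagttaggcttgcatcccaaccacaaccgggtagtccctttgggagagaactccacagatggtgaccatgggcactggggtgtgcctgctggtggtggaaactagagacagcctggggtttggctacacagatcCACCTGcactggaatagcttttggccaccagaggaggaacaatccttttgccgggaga
Both windows held 1 match to CAGGTG, which 20.2% of 32851 promoters of this length hold. Neither held the octamer ATGCAAAT on either strand, found in 1.74% of them.

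Scgb3a2 was 0.88 log2 units higher in the transgenic lungs (SE 0.24, n = 4 per genotype, limma unadjusted p = 0.00329, adjusted p = 1.00), from -0.56 to 0.58 in wild-type and from 0.47 to 1.26 in transgenic lungs. Of 12 lung identity genes 11 had a tested probe, each well above background on all 8 arrays. In transgenic replicate 1, the lung that stands apart below, 5 of the 10 with a value were at their lowest and 3 at their highest. The lowest included Ager, a type I cell gene, at -1.16 against 0.0012 to 0.42, and the surfactant gene Sftpc at 0.79 against 1.22 to 3.09. Of the 11, Sftpa1 alone was called lower in transgenic lungs, where 0.104% of all probes were, with a difference of -0.75 (SE 0.29). Their part in the immunoglobulin ratios was not tested. Median sample signals were 204 to 277.5 over local backgrounds of 55.5 to 59, no spot was saturated, and the 8 arrays limit the precision of every comparison. Each of 4 slides carried 1 lung of each genotype, and the slides were scanned on 2 days, wild-type replicates 1 and 3 and transgenic replicates 1 and 4 on the first.

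Immunoglobulin transcripts varied far more among lungs than most genes did, and 1 lung, transgenic replicate 1, stood apart. The median SD among lungs within a genotype over the 13 tested members was 0.61 log2 units, and 0.54 without that lung. Over all tested probes it was 0.18 and 0.16. The fall was larger for the kappa median, 0.91 to 0.50 over 2 probes, and for Igj probe A_51_P150710, 1.34 to 0.69. The heavy and lambda medians went from 0.56 to 0.50 and from 0.59 to 0.53. Over the 11 tested members with a value on every array, the median log2 ratio was -1.23, -0.998, -1.58 and -0.93 in wild-type replicates 1 to 4 and 0.55, -0.55, -0.53 and -1.52 in transgenic replicates 1 to 4. Transgenic replicate 1 was the only one of the 8 lungs above the pool, and transgenic replicate 4 lay near wild-type replicate 3, the lowest, so the genotypes overlapped. Transgenic replicate 1 was over 1 unit above each of the other 7 lungs in 4 of the 11 tested members with a value in it, a rule that 0.313% of all such probes met. These were Igkv1-117, Igkv6-14, 1 Iglv1 probe and Igj. Results are therefore given with and without this lung.

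**Figure D1:**
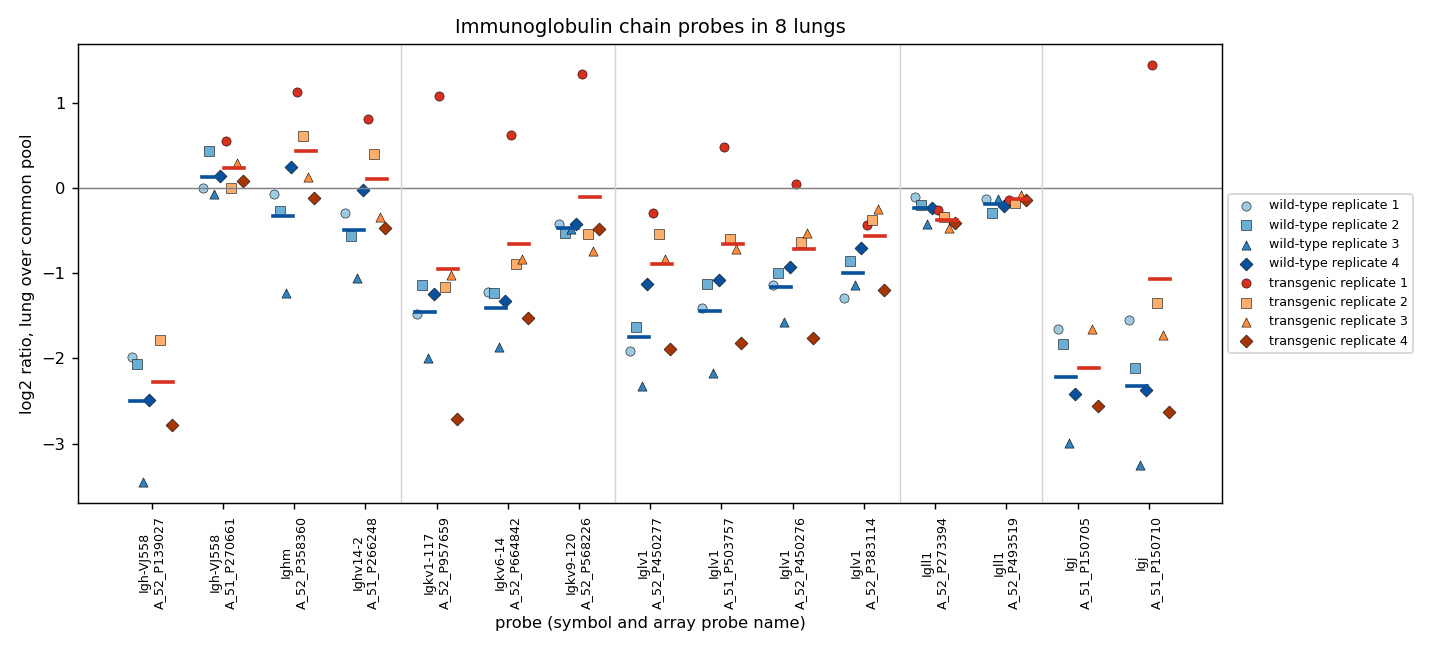
Log2 ratio of each lung to the common pool (vertical axis) for the 15 immunoglobulin probes (horizontal axis), with a marker per lung and a bar at the mean of each genotype. Transgenic replicate 1 reaches 1.44 for Igj probe A_51_P150710, where the other lungs lie between -3.25 and -1.35.

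Among the heavy chains, Ighm encodes the mu constant region of IgM. Its log2 ratio was -0.07, -0.28, -1.23 and 0.25 in wild-type replicates 1 to 4 and 1.12, 0.60, 0.13 and -0.12 in transgenic replicates 1 to 4. Wild-type replicate 3 was lowest and transgenic replicate 1 highest, and the transgenic range began below the wild-type maximum. The difference was 0.76 (SE 0.32, n = 4 per genotype), where limma's unadjusted p was 0.0346, its adjusted p 1.00 and the exact permutation p 0.143. Ighv14-2, a heavy chain variable segment, gave -0.30, -0.57, -1.06 and -0.03 in wild-type and 0.81, 0.40, -0.34 and -0.47 in transgenic lungs. Its extremes were in the same lungs as those of Ighm, with transgenic replicates 3 and 4 within the wild-type range. Its difference was 0.59 (SE 0.29, n = 4 per genotype), with an unadjusted limma p of 0.0634 and an exact permutation p of 0.2.

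The probes of Igh-VJ558 disagreed. Probe A_52_P139027 gave -1.98, -2.06, -3.45 and -2.49 in wild-type replicates 1 to 4, -1.78 in transgenic replicate 2 and -2.78 in transgenic replicate 4, while its spots on transgenic replicates 1 and 3 carried an outlier flag and were left out. With flagged spots kept, transgenic replicate 1 stood at 1.43 and transgenic replicate 3 at -2.01. The lung that stood highest for the other chains was thus missing from this probe's fit, whose difference was 0.21 (SE 0.41, 4 wild-type and 2 transgenic lungs). The other probe, A_51_P270661, described in the matrix as a hypothetical alpha polypeptide, the alpha chain being that of IgA, stayed between -0.07 and 0.55 in all 8 lungs. Its difference of 0.10 (SE 0.15, n = 4 per genotype) was within the spread between lungs.

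The kappa light chain probes read variable segments, and both tested ones set transgenic replicate 1 apart. Igkv1-117 gave -1.47, -1.14, -1.99 and -1.24 in wild-type and 1.08, -1.16, -1.02 and -2.71 in transgenic replicates 1 to 4. Transgenic replicate 1 was the highest of 8 lungs and transgenic replicate 4 the lowest. The difference of 0.51 (SE 0.59, n = 4 per genotype) had an exact permutation p of 0.629 and became -0.17 without transgenic replicate 1. Igkv6-14 gave -1.23, -1.23, -1.86 and -1.33 in wild-type and 0.62, -0.90, -0.84 and -1.52 in transgenic lungs. Transgenic replicates 1 to 3 were above all wild-type lungs and transgenic replicate 4 lay among them. Its difference was 0.75 (SE 0.36, n = 4 per genotype), with an unadjusted limma p of 0.0596 and an exact permutation p of 0.114, and 0.33 without transgenic replicate 1.

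Igkv9-120 was well above background on 1 array, that of transgenic replicate 1, at a log2 ratio of 1.33. The other 7 lungs lay between -0.74 and -0.43, where the offset holds dim probes near 0. With 1 array measured above background, no fold is given and no test was made.

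The lambda chain was read by 4 probes of Iglv1, a lambda variable segment, and on each of them transgenic replicates 1, 2 and 3 were above all 4 wild-type lungs. The brightest, A_52_P450277, gave -1.91, -1.63, -2.33 and -1.13 in wild-type and -0.30, -0.55, -0.83 and -1.89 in transgenic lungs. Transgenic replicate 4 lay beside wild-type replicates 1 and 3, the lowest lungs. The difference was 0.86 (SE 0.33, n = 4 per genotype), where limma's unadjusted p was 0.023, its adjusted p 1.00 and the exact permutation p 0.0857. Probe A_52_P383114, the dimmest, gave -1.30, -0.86, -1.15 and -0.71 in wild-type and -0.44, -0.37, -0.24 and -1.19 in transgenic lungs. It is the probe of this gene closest to background, well above it on 7 of the 8 arrays. Transgenic replicate 4 again fell among the wild-type lungs, with a difference of 0.44 (SE 0.20, n = 4 per genotype) and an unadjusted limma p of 0.0523. The other two Iglv1 probes differed by 0.78 (A_51_P503757, SE 0.40) and 0.45 (A_52_P450276, SE 0.31). All 4 probes were higher on average in transgenic lungs, also without transgenic replicate 1, where the differences were 0.19 to 0.66.

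Igj had the widest range of any member. Probe A_51_P150710 gave -1.55, -2.11, -3.25 and -2.38 in wild-type and 1.44, -1.35, -1.73 and -2.62 in transgenic replicates 1 to 4, a span of 4.70 log2 units over the 8 lungs. Transgenic replicate 1 stood 2.79 units above the next lung, transgenic replicate 2 was also above each wild-type lung, and transgenic replicates 3 and 4 fell among them. The difference was 1.26 (SE 0.70, n = 4 per genotype), where limma's unadjusted p was 0.0977, its adjusted p 1.00 and the exact permutation p 0.257. Without transgenic replicate 1 the difference was 0.42. The other Igj probe, A_51_P150705, was flagged on transgenic replicates 1 and 2 and gave -1.66 and -2.56 on the remaining pair, against -1.65, -1.83, -2.99 and -2.42 in wild-type lungs. With flagged spots kept, it read 1.45 in transgenic replicate 1 and -1.33 in transgenic replicate 2, close to the first probe.

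Igll1 varied little. Probe A_52_P273394 gave -0.11, -0.20, -0.43 and -0.23 in wild-type and -0.27, -0.34, -0.47 and -0.41 in transgenic lungs, a range of 0.36 units, with transgenic replicate 1 inside the range of the others. Its difference was -0.13 (SE 0.10, n = 4 per genotype), with an unadjusted limma p of 0.235. The second probe, well above background on 3 arrays and not tested, lay between -0.30 and -0.08.

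The comparison of genotypes asked whether the untreated transgenic lung differed in antibody transcripts. Averages were higher in transgenic lungs for 12 of the 13 tested members, against 50.4% of all 32645 tested probes, and the chains of 1 lung move together, so these are not 12 independent observations. Past 1.5-fold with an unadjusted limma p under 0.05, 2 members were higher, the Iglv1 probe A_52_P450277 and Ighm, where 0.126% of all probes were called, and none was lower, where 0.104% were. With Benjamini-Hochberg adjustment no member passed 0.05, as no probe did in the whole table (0% of 32645), and 2 members had an unadjusted p under 0.05, where 2.09% of all probes did. The methods' t-test called 0 members at 1.5-fold and an unadjusted p under 0.05, and 0 after adjustment, where it called 0.049% of all probes higher. No member separated the genotypes without overlap, which 1.98% of all probes did. The count of 2 rested on single lungs. It was 0 without transgenic replicate 1, where 0.0785% of all probes were called, 0 without transgenic replicate 2 (0.0959% of all probes), 0 without wild-type replicate 3 (0.0629%), 1 without wild-type replicate 1 (0.0915%) and 1 without wild-type replicate 2 (0.115%), and it was 9 without transgenic replicate 4 (0.325%). With slide as a block 7 members were called, where 0.263% of all probes were, and none had an adjusted p under 0.05.

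Within slides, Igj was higher in the transgenic lung on all 4, by 0.63, 2.99, 0.76 and 0.65 log2 units, the slide of transgenic replicate 1 giving the largest difference. The Iglv1 probe A_52_P450277 was also higher on all 4 slides, by 0.30 to 1.62, Iglv1 probe A_51_P503757 by 0.35 to 1.89 and Igkv6-14 by 0.33 to 1.85. The share of all probes higher on every slide is not given here, and these probes share each lung's RNA. The remaining members with a value on every array were not higher on every slide. Igkv1-117 was -0.72 and -0.02 on a pair of them, Iglv1 probes A_52_P450276 and A_52_P383114 were -0.18 and -0.05 on 1, and Igh-VJ558 probe A_51_P270661 was -0.44 on 1. Ighm and Ighv14-2 were each higher on 3 slides, and at -0.12 and -0.31 on the other. The tested Igll1 probe ran from -0.24 to 0.02. Within the first scan day the differences of Ighm, Igkv6-14, Iglv1 and Igj were 1.15, 1.09, 1.03 and 1.81, and within the second they were 0.38, 0.41, 0.69 and 0.70, with 2 lungs per genotype each day.

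Heavy and light chains were set side by side as a description. The median log2 ratio of the 3 heavy chain probes with all values was -0.07, -0.28, -1.06 and 0.14 in wild-type and 0.81, 0.40, 0.13 and -0.12 in transgenic replicates 1 to 4, and that of the 6 kappa and lambda probes was -1.35, -1.13, -1.93 and -1.10 and 0.26, -0.61, -0.77 and -1.79. On these few probes the light chain median was below the heavy chain median in each lung, but Igh-VJ558 probe A_52_P139027, the lowest heavy chain probe, is not among the 3, and the kappa median alone was 0.85 in transgenic replicate 1. Probes named by description, introduced below, gave the other order outside that lung, with heavy chain medians over 32 probes of -1.65, -1.49, -2.40 and -1.28 in wild-type and 1.06, -1.14, -1.26 and -2.29 in transgenic lungs, and kappa medians over 33 probes of -0.82, -0.54, -1.68 and -0.83 and 0.57, -0.49, -0.53 and -1.39. The order of heavy and light chains thus turned on the probes chosen. The median difference between genotypes was 0.40 over the 4 heavy chain probes and 0.63 over the 6 tested kappa and lambda members, while over described probes it was 0.80 for 35 heavy chain and 0.40 for 36 kappa probes, against 0.001 over all tested probes. The median SD among lungs within a genotype was 0.56 log2 units for heavy, 0.91 for kappa and 0.59 for lambda members, the kappa value resting on 2 probes, against 0.18 for all probes. Described probes again had the other order, 1.1003 for heavy and 0.73 for kappa. In wild-type lungs the members' medians were 0.54, 0.34 and 0.40, and in transgenic lungs 0.58, 1.23 and 0.73. Of these 3 classes of members kappa had the lowest median among wild-type lungs and the highest among transgenic lungs, and without transgenic replicate 1 the kappa, heavy and lambda medians were 0.50, 0.50 and 0.53. Differences between classes were not tested.

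Of the 13 tested members, 10 had an SD among lungs at or above the 99th percentile of all tested probes, Igj probe A_51_P150710 being highest at 1.34, followed by Igkv1-117 at 1.13 and Iglv1 probe A_51_P503757 at 0.75. Igll1 was the steadiest at 0.11, at the 16.3 percentile, then Igh-VJ558 probe A_51_P270661 at 0.24 and Iglv1 probe A_52_P383114 at 0.36. Without transgenic replicate 1, 7 of 13 stayed at or above the 99th percentile and 10 at or above the 95th. In the 4 wild-type lungs alone 4 of 13 were at or above the 99th and 8 at or above the 95th percentile, so the spread was also present without any transgenic lung.

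**Figure D2:**
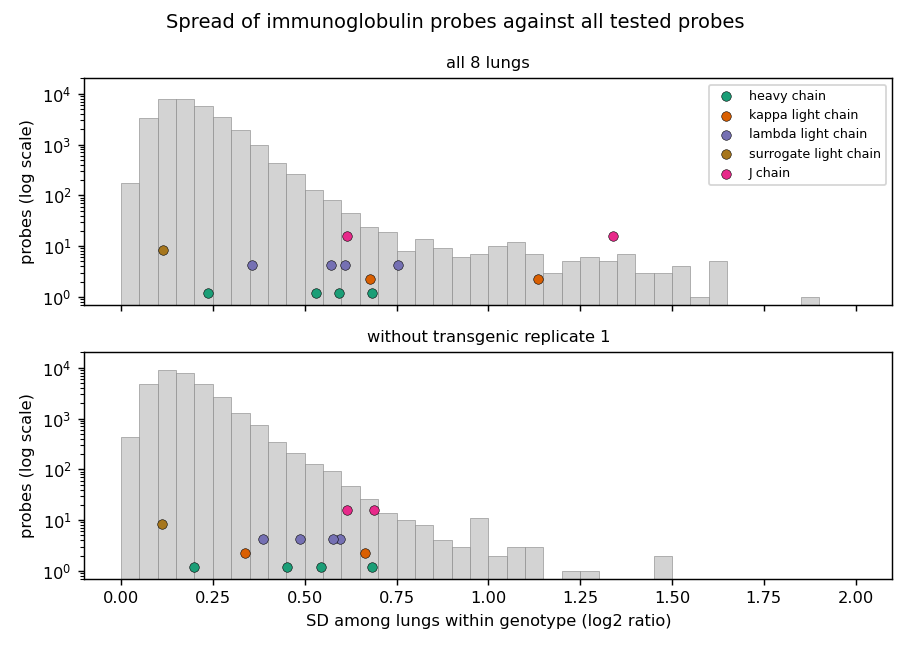
Histogram of the SD among lungs within genotype (horizontal axis, log2 ratio) over all tested probes (vertical axis, number of probes on a log scale), with the 13 tested immunoglobulin probes as dots whose height has no meaning. In the upper panel (all 8 lungs) 10 dots are at or above the 99th percentile, and in the lower panel (without transgenic replicate 1) 7 are.

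Most members lay below the pool in nearly every lung. Of the 11 tested members with a value on every array, 8 were below it in at least 7 lungs, against 29.4% of all such probes. The pool held equal RNA of every sample by the study's methods. If those samples were these 8 lungs alone, which the methods do not spell out, a gene's linear ratios average near 1, as they did over all tested probes (median 1.01). The mean of the 8 linear ratios was 0.556 for Igj (A_51_P150710), 0.563 for Igkv6-14, 0.587 for Igkv1-117 and 0.447 for Iglv1 (A_52_P450277). It was 1.14 for Ighm and 0.941 for Ighv14-2. Values under 0.6 were found for 6 of the 11 members, against 2.33% of all probes. In the scanner software's processed signals, which carry no offset, the mean was 0.509 for Igj and 0.422 for Igkv6-14. Every lung was in Cy5 with no dye swap, so dye and sample cannot be told apart here, and the pool, common to all arrays, cancels from differences between lungs.

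Ratios also went with scan day, a contrast examined after the values had been seen. With transgenic replicate 1 left out and genotype in the model, all 6 tested kappa and lambda members were higher on the second day with an unadjusted limma p under 0.05, as were 9.89% of all probes in either direction, and the heavy chain, J chain and surrogate light chain members were also higher on average on the second day, with p of 0.0515 to 0.776. None of the 13 had an adjusted p under 0.05, which 0.0375% of all probes had. Among described probes in the same fit, 20 of 35 heavy chain and 23 of 36 kappa probes had an unadjusted p under 0.05 in either direction. Higher on the second day were 29 of the 35 and 28 of the 36, and some kappa probes such as Igkv3-10 were lower. Without transgenic replicate 1 the day thus went with both kinds of chain. With all 8 lungs 3 of the 35 and 9 of the 36 had an unadjusted p under 0.05, against 10.5% of all probes. For Iglv1 (A_52_P450277) the mean was -2.04 on the first day without transgenic replicate 1 and -1.03 on the second, a modeled difference of 0.93. Its adjusted p in limma was 0.168 over all probes. For Igkv6-14 the means were -1.54 and -1.07. With all 8 lungs, 1 of the 13 members had an unadjusted p under 0.05, against 10.5% of all probes, and none had an adjusted p under 0.05, which 0.0123% had. Each day held 2 lungs of each genotype, and the day of scanning and other differences between these mice cannot be told apart.

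**Figure D3:**
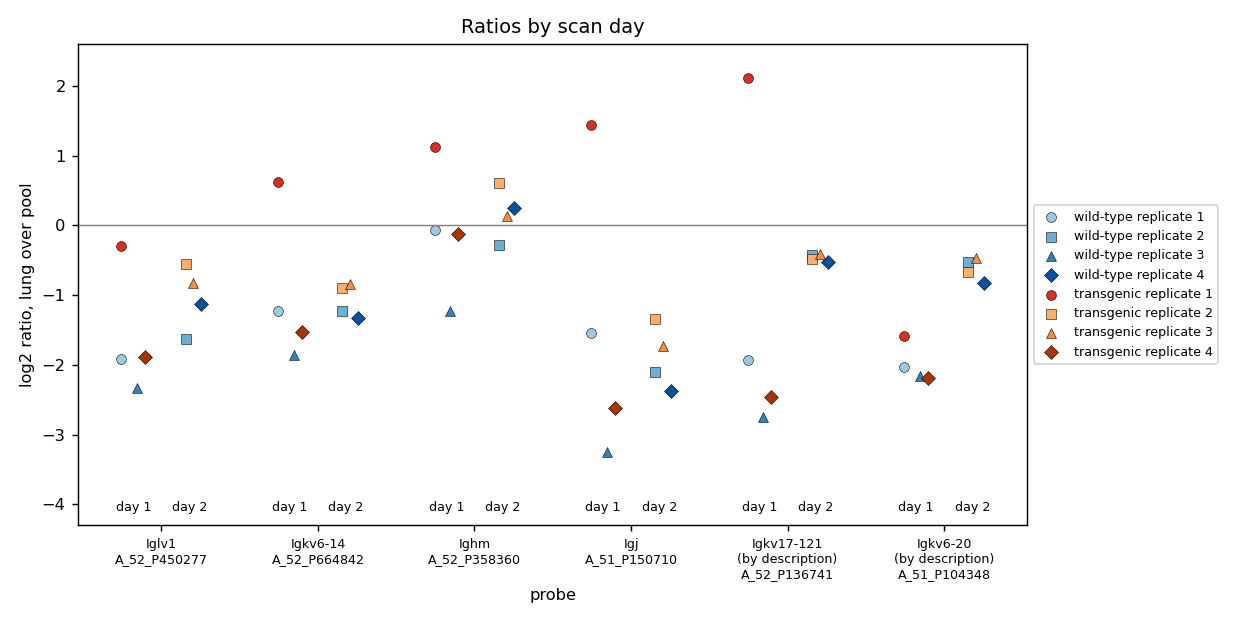
Log2 ratio to the pool (vertical axis) of 4 immunoglobulin members and 2 kappa probes named by description alone (horizontal axis), with the lungs of the first scan day at the left and those of the second at the right of each probe. For Igkv17-121 the second-day lungs lie between -0.52 and -0.42 and the first-day lungs between -2.74 and -1.93, apart from transgenic replicate 1 at 2.11.

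Antibody classes could be compared through the constant regions. No member with a symbol is described as an IgG constant region, so probes described as gamma 1 and gamma 2c constant regions, which have no symbol in the matrix, were set against Ighm. The gamma 1 ratio was -0.61, -0.28, -0.87 and -0.10 in wild-type and 2.33, -0.19, 0.04 and -0.87 in transgenic replicates 1 to 4, and the gamma 2c ratio -2.46, -2.45, -2.86 and -2.52 and 1.71, -2.92, -2.22 and -3.15. Transgenic replicate 1 was again highest for both, and for gamma 2c on this probe the next lung was lower by 3.92 units, against 1.04 on the gene's other probe. The difference of log2 ratios, gamma 1 less mu, was 1.21, -0.79, -0.09 and -0.75 in transgenic lungs and -0.54, -0.01, 0.36 and -0.35 in wild-type lungs, with means of -0.10 ± 0.93 and -0.14 ± 0.40 (SD, n = 4 each, exact two-sided permutation p = 0.943). For gamma 2c the means were -2.08 ± 1.84 and -2.24 ± 0.47 (SD, n = 4 each, exact permutation p = 0.943), and both p-values were 0.943 after adjustment over the 2 tests. On these probes the gamma ratios exceeded the mu ratio in transgenic replicate 1 by 1.21 and 0.59, more than in any other lung. The gamma 2c statement turned on the probe, since a brighter one, A_51_P351953, flagged on transgenic replicates 3 and 4 and therefore not used, read 0.94 in transgenic replicate 1, below Ighm there, and -0.43 to -0.10 in the other 5 lungs. Mu was read by the Ighm member alone. A brighter probe described as mu constant region, A_51_P485421, read 1.02 in transgenic replicate 1 and 0.22 to 0.65 in the other lungs, and was not used. Without transgenic replicate 1 the genotype differences on the probes used turned to -0.41 and -0.73.

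Single probes of different chains were correlated over the 8 lungs. Of the 6 pairs among Ighm, Igkv6-14, Iglv1 and Igj, Pearson's r was lowest for Iglv1 with Igj, 0.76 (rho 0.74), and highest for Igkv6-14 with Igj, 0.98 (rho 0.93). By exact permutation with adjustment over the 6 pairs, p for r was 0.00156 to 0.0159 and p for rho 0.0134 to 0.0458, the raw p for r running from 4.71e-04 to 0.0159, n = 8. In each pair the samples farthest from the median of the first probe were transgenic replicate 1 and wild-type replicate 3. Without them r was 0.86 for Ighm with Iglv1 (exact p = 0.0278), and 0.48 to 0.82 for the other 5 pairs with exact p of 0.0542 to 0.321, so none of those 5 passed over 6 lungs. Their r fell little for Igkv6-14 with Iglv1 (0.82 to 0.79) and most for Ighm with Igj (0.84 to 0.50), where the relation rested on these lungs. Within genotypes r was 0.38 to 0.92 in wild-type and 0.79 to 0.99 in transgenic lungs, and within scan days 0.93 to 0.99 and 0.44 to 0.92, each over 4 lungs. The probes share each lung's RNA, array and pool.

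**Figure D4:**
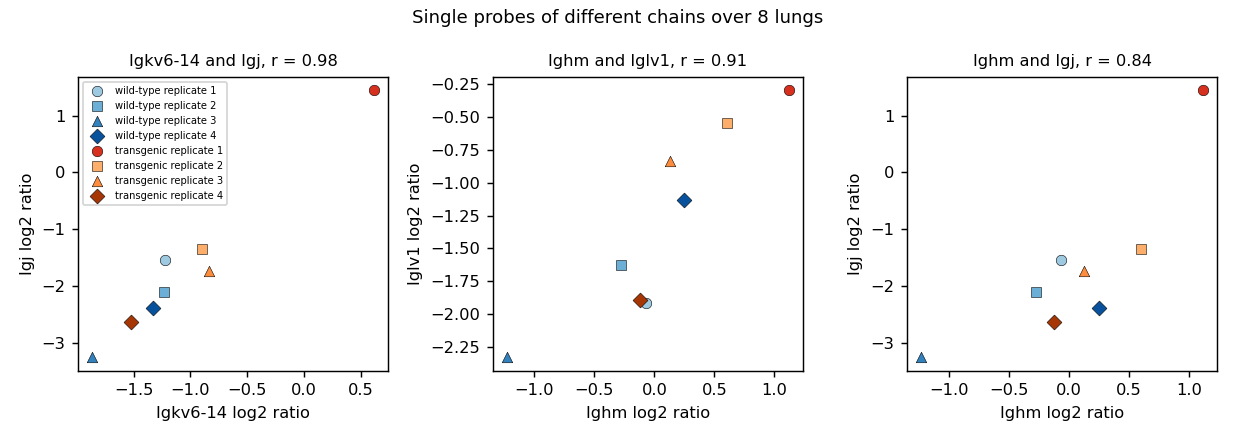
Log2 ratios to the pool of pairs of single probes, a marker per lung (n = 8), for Igkv6-14 with Igj, Ighm with Iglv1 and Ighm with Igj. Transgenic replicate 1 lies at the upper right and wild-type replicate 3 at the lower left of each panel, and r is 0.98, 0.91 and 0.84.

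**Figure D5:**
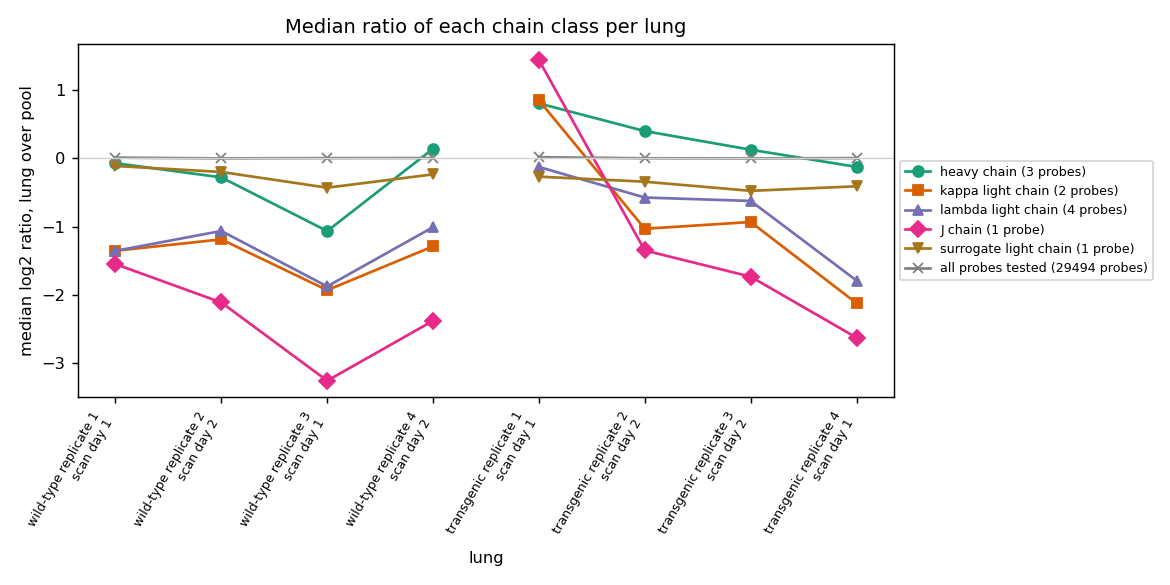
Median log2 ratio to the pool (vertical axis) of the tested probes of each class with a value on every array, for each lung and its scan day (horizontal axis). Lines join the values of a class within a genotype and imply no order of lungs. J chain and kappa medians lie below 0 in 7 lungs and lambda medians in all 8, the surrogate light chain stays between -0.47 and -0.11, and all probes stay near 0.

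A further 87 probes have no symbol but a description that names an antibody chain. They were picked out after values had been seen and serve as context. Of these 79 were tested, and the median log2 ratio of the 73 with a value on every array was -1.19, -0.84, -1.74 and -0.88 in wild-type and 0.92, -0.52, -0.81 and -1.70 in transgenic replicates 1 to 4. Transgenic replicate 1 was highest and wild-type replicate 3 lowest, as for the members. Transgenic replicate 1 was over 1 unit above all other lungs in 47 of the 79, against the 0.313% given above. Past 1.5-fold and an unadjusted limma p under 0.05, 4 of the 79 were higher, where 0.126% of all probes were, and 0 lower, where 0.104% were, and none had an adjusted p under 0.05.

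Other genes of the B cell lineage moved with the immunoglobulin chains to a lesser extent. Of 23 B cell genes, all tested, transgenic replicate 1 was the highest lung in 16, against 22.7% of all probes, and over 1 unit above the rest in 0. The median over the list ran from -0.44 to -0.04 in wild-type and from -0.29 to 0.38 in transgenic lungs. Past 1.5-fold and an unadjusted limma p under 0.05, 2 of 23 were higher in transgenic lungs, where 0.126% of all probes were, and none lower, where 0.104% were. The 2 were Ms4a1, which encodes CD20, by 0.63 (SE 0.25) and the transcription factor Spib by 0.75 (SE 0.26), with adjusted p of 1.00. Cd79b, a signaling chain of the B cell receptor, read -0.22, -0.32, -0.86 and 0.25 in wild-type and 1.08, 0.50, -0.13 and -0.29 in transgenic lungs, with the same lungs as Ighm at both ends.

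Of 20 plasma cell genes 19 were tested, none was called, and transgenic replicate 1 was highest in 7, against 22.7% of all probes. Among these Mzb1, a chaperone of antibody-secreting cells, read 1.28 in transgenic replicate 1 and -0.50 to 0.07 elsewhere, and Pou2af1, the octamer coactivator, 0.84 and -0.31 to -0.04. Xbp1 and Sdc1, also plasma cell genes, were lowest there, Xbp1 at -1.10 against -0.78 to -0.39 and Sdc1 at -0.61 against -0.46 to 0.03. The list's medians ran from -0.41 to -0.19 in wild-type and from -0.33 to -0.04 in transgenic lungs.

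Of 14 genes for immunoglobulin receptors and transport, 1 was called higher and 0 lower, where 0.126% and 0.104% of all probes were. It was Fcmr, the IgM receptor of lymphocytes, by 0.86 (SE 0.32, limma unadjusted p = 0.0211, adjusted p = 1.00). Pigr, which carries polymeric antibody across epithelium, read 1.57 in transgenic replicate 1 and -0.48 to 0.54 in the other lungs. Of 16 genes for recombination, early B cells and class switching 12 were tested and none was called. Of 12 lymphoid stroma and high endothelium genes 10 were tested and 1 was called, where 0.126% of all probes were called higher. It was the lymphotoxin Ltb, higher by 0.62 (SE 0.27). Ccl19, a chemokine of lymphoid zones, read 1.34 in transgenic replicate 1 against -0.24 to 0.16.

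Markers of other blood cells were read on the same arrays. Transgenic replicate 1 was the highest lung in 22.7% of all probes. Of 17 tested T cell genes none was called, with list medians of -0.24 to 0.11 in wild-type and -0.25 to 0.20 in transgenic lungs, transgenic replicate 1 highest in 9. Of 10 neutrophil genes none was called and transgenic replicate 1 was highest in 7. S100a9, an abundant neutrophil protein, read 1.54 in that lung, -3.19 to -1.44 in the other transgenic lungs and -3.43 to 0.32 in wild-type lungs. The neutrophil list medians were -0.64 to 0.24 in wild-type and -2.47 to 0.86 in transgenic lungs. Of 7 tested red cell genes none was called and transgenic replicate 1 was highest in 0. The part of these cells in the immunoglobulin ratios was not tested.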

How the data were processed

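Lung RNA of 8 mice was read on 8 two-color Agilent arrays, grouped by genotype as the labels give it, with 0 columns left unmapped. The authors deposited scanner output with median spot and local background intensities, processed intensities and outlier flags (Feature Extraction 10.10.1.1 per the file headers, 11.0.1.1 in the submitters' processing notes), and a matrix of log2 ratios equal to the processed ratios within 0.001. The flags, quality codes that the authors deposited beside the intensities, took the unit other. From the intensities, median signals were background-corrected with normexp (offset 50, fitted on unflagged spots), flagged spots were removed, ratios were loess-normalized within array and spots of a probe averaged, in R 4.3.3 with limma 3.58.1. The offset draws dim probes toward 0. Probes well above background on at least 4 of 8 arrays with at least 2 values per genotype were tested with limma, two-sided, with Benjamini-Hochberg adjustment over 32645 probes. Exact permutations of 4 against 4 give p of 0.0286 at the lowest. Nothing says that lungs of a genotype came from separate litters.

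The members and gene lists were chosen with earlier results of these data known. Named genes were the brightest probes of up to 8 heavy and 8 light chain genes, Igj, Iglv1, members past 1.5-fold with an unadjusted p under 0.05, and the 3 tested members of largest and smallest SD, and further probes and context genes were named after their values were seen. Correlations and antibody classes used each gene's brightest probe with a value on every array, mu being read by the Ighm member and not by described probes. On simulated data for this comparison over 32645 probes, limma recovered 81% of 100 probes changed by 1 log2 unit and 97% of 100 changed by 2. Those probes were drawn at random from all tested probes, whose median SD was 0.18. The tested members had a median SD of 0.61, so these shares do not apply to them. Alternatives changed background, normalization, channel, filter, blocks, test and samples. The scan day contrast and the probes named by description were added after seeing the data.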

Additional observations from a re-analysis of the deposited data

Results flagged for a closer look

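Each group of 4 lungs was checked for a lung far from the other 3, where the gap to the nearest lung takes up most of the whole range (Dixon's 95% critical value). Of 28 member groups with 4 values 2 met this, and chance gives about 5% of groups. Igkv9-120 in transgenic replicate 1 met it with a share of 0.878, at 1.33 against -0.74 to -0.49 in the other transgenic lungs. Igkv6-14 in wild-type replicate 3 met it with 0.834, at -1.86 against -1.33 to -1.23. Igj and Igkv1-117, for which transgenic replicate 1 stood over 1 unit above the other lungs, did not meet it, transgenic replicate 4 being low in both.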

How the results depend on the processing

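No member had an adjusted p under 0.05 and none was called lower under any alternative that was run. The count of members called higher, 2 in the main analysis, was 4 with a normexp offset of 0 (0.355% of all probes), 1 in the sample channel alone (0.095%), 0 with normexp fitted on all spots (0.0306%), 7 with slide as a block (0.263%), 5 with the replicate block (0.202%), 0 within the first scan day (0.395%), 0 with the methods' t-test (0.049%) and 1 with array weights (0.0796%), and 0 to 9 leaving out each lung in turn. The cause of these changes was not tested. Median differences of heavy and light chains moved by less than the spread between lungs under every alternative that gave a value. Over the fits without each lung the heavy chain medians were 0.22 to 0.78 and the light chain medians 0.36 to 1.07. Median SDs stayed within 1.5-fold of the main values under every alternative that gave one. Without each lung they were 0.46 to 0.61 for heavy and 0.50 to 0.70 for light chains.

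Single genes reversed in few cases. Igkv1-117 was -0.17 without transgenic replicate 1, Igll1 was 0.0189 with normexp fitted on all spots, and Igh-VJ558 (A_51_P270661) was -0.0275 with that fit, -0.15 within the second scan day, -0.0196 with array weights and -0.0054 without transgenic replicate 1. Leaving out each lung, Igkv1-117 ranged from -0.17 to 1.096 and Igh-VJ558 from -0.0054 to 0.205. Correlations fell past the adjusted threshold with median centring (r = 0.78 for Ighm with Igkv6-14, 0.80 for Ighm with Igj and 0.72 for Iglv1 with Igj) and in the sample channel alone (0.57, 0.42 and 0.73), and without transgenic replicate 1 for Iglv1 with Igj (0.70). Without each lung in turn r for Iglv1 with Igj was 0.69 to 0.82, and every other pair kept an adjusted p under 0.05, with r from 0.77 to 0.99. The genotype difference in gamma 1 less mu was -0.0518 with normexp fitted on all spots and -0.41 to 0.26 without each lung, and that of gamma 2c -0.73 to 0.65.

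Replicate numbers did not pair the lungs. Deviations of same-numbered lungs correlated at 0.32, 0.25, -0.08 and -0.21, and 4 of 8 lungs correlated best with their own number. Lungs of a shared slide correlated at 0.32, 0.25, 0.30 and 0.08. Values near background limit Igkv9-120, the second Igll1 probe and Iglv1 probe A_52_P383114.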

Other observations

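Among probes named by description alone, some passed the adjusted threshold for scan day, which no member did. With transgenic replicate 1 left out, 5 of 79 had an adjusted limma p under 0.05 for scan day, where 12 of 31979 probes did. Igkv17-121, a kappa variable segment, read -0.43, -0.52, -0.49 and -0.42 in the second-day lungs and -1.93, -2.74 and -2.46 in the first-day lungs, with transgenic replicate 1 at 2.11 (difference 1.92, adjusted p = 0.00502). Igkv6-20 kept the day order in transgenic replicate 1 too, with -0.83 to -0.47 on the second day and -2.19 to -1.59 on the first (difference over 8 lungs 1.37, adjusted p = 0.0252). The Igkv6-20 probe was dim, well above background on 2 of 4 wild-type and 3 of 4 transgenic arrays. Of the 5 probes, 3 were kappa and 2 heavy chains. The heavy chain probe A_51_P122752, described as an immunoglobulin heavy chain mRNA, read -0.65 to 0.37 on the second day, -1.98 to -1.69 on the first and 3.02 in transgenic replicate 1 (adjusted p = 0.0188), and A_52_P528041, a heavy chain variable region, had an adjusted p of 0.00502. Igkv3-10 ran the other way, at -0.91 to -0.71 on the second day and -0.32 to 0.02 on the first. These segments were named after their values were seen, and which property of the lungs or arrays moved with the day was not tested.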
